A study of Mus musculus with 4 samples.

Results

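The interferon-induced GTPases of the mouse are encoded by the guanylate-binding protein (Gbp) genes, the immunity-related GTPase (IRG) genes and the Mx genes. The 10 genes listed here were Gbp2, Gbp3, Gbp6, Gbp7, Gbp9, Irgm1, Igtp, Iigp1, Tgtp1 and Mx1, taken from 18194 named genes on the array. All probe sets were used whose annotation gives 1 gene symbol and whose symbol is one of the 10. This gave 12 probe sets for 8 genes. Gbp9 had no such probe set and is unnamed here, and Tgtp1 had only a probe set annotated to both Tgtp1 and Tgtp2, which is given apart from the members. Gbp2, Gbp6, Gbp7 and Iigp1 each had 2 probe sets, and Gbp3, Irgm1, Igtp and Mx1 had 1.

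Expression was measured on 4 arrays of colonic crypt cells from male mice, with 1 array per group and no replicates. GFPhigh and GFPlow were crypt cells of H2B-GFP mice, which carry a histone H2B-GFP fusion gene controlled by a tetracycline responsive element. Both had been labelled with doxycycline for 7 days and chased without it for 2 days, and were sorted as cells that kept the label (non-proliferating) and cells that diluted it (proliferating). Dox minus and Dox plus were isolated crypts of doxycycline-inducible β-catenin mice, left untreated or given doxycycline at 2.0 mg/ml in drinking water for 5 days. Dox plus therefore differed from Dox minus in doxycycline as well as in β-catenin, and the parts of the drug and of the transgene cannot be told apart. Strain, age, the form of β-catenin, the driver of either transgene and the number of mice per array were not stated in the sources used. All values are deposited log2 expression values, and values under 5 were treated as not measured.

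Gbp and IRG proteins are GTP-hydrolysing defence proteins that act inside the infected cell. Their genes are low at rest in most cells and are switched on by interferon gamma, in part through the factor IRF1, and by type I interferons through a complex that holds STAT2 and IRF9. Gbp proteins coat bacteria and pathogen-containing vacuoles and help to activate the inflammatory caspase-11 in mouse cells. Among IRG proteins, Irgm1 and Igtp sit on host membranes and hold the effector IRG proteins in check, while Iigp1 and the Tgtp proteins are effectors that load onto vacuoles such as those of Toxoplasma and disrupt them. Mx1 is a dynamin-like antiviral protein that restricts influenza virus in mice and is induced by type I and type III interferons. Intestinal epithelial cells respond to both type III interferon and interferon gamma.

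The sequences just before the gene starts are shown because the measured genes lie at several places on the chromosomes and differed together in the Dox pair. RefSeq windows (GRCm38.p6) from 250 bases before to 50 bases after the gene start were used for 6 of the 10 genes, of which Gbp3 had 2. Gbp6, Gbp9 and Mx1 had no entry. Iigp1 was left out of the search, so whether it has either motif is unknown here. A search was made on both strands for the core of the interferon-stimulated response element (ISRE), GAAANNGAAA, and for the gamma-activated site (GAS), TTCNNNGAA. The ISRE core stood in a window of 6 of the 6 genes, and in 3.44% of all 32851 windows of the same length. The GAS stood in 3 of the 6 genes, against 8.30% of all windows, and both motifs in 3 of the 6, against 0.454%. Gbp2, Gbp3 and Gbp7 lie in one group on chromosome 3, and Irgm1 and Tgtp1 in one group on chromosome 11. The 6 genes are thus related neighbours in part and not 6 independent cases. No ISRE core overlapped a GAS. A match describes the letters and is not evidence of binding. The windows of the 5 measured genes that were searched follow, 5′ to 3′ on the strand of the gene, with matches to either motif in capitals.
Gbp2 (chr3:142620413-142620712, plus strand): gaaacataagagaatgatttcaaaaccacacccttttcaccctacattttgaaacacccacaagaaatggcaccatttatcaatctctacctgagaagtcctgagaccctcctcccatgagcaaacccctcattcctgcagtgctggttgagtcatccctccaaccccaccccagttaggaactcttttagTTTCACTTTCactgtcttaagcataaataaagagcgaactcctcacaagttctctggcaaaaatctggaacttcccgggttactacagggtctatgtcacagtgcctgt
Gbp3 (chr3:142559794-142560093, plus strand): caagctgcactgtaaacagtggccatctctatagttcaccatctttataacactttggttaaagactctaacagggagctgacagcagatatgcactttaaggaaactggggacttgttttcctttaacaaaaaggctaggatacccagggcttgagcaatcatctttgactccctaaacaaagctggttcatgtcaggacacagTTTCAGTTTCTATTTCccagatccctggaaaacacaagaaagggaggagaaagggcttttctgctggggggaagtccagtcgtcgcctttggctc
Gbp7 (chr3:142530086-142530385, plus strand): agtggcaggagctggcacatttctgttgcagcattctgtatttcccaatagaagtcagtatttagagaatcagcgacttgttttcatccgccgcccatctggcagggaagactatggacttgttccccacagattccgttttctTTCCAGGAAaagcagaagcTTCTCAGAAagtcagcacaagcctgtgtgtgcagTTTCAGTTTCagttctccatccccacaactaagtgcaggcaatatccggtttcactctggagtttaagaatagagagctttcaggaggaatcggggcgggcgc
Irgm1 (chr11:48871371-48871670, minus strand): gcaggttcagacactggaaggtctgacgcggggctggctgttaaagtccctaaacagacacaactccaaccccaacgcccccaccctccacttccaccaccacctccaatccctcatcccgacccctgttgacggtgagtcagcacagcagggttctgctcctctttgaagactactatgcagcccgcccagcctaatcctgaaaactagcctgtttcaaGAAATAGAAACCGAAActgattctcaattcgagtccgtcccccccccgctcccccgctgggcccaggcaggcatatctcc
Igtp (chr11:58199306-58199605, plus strand): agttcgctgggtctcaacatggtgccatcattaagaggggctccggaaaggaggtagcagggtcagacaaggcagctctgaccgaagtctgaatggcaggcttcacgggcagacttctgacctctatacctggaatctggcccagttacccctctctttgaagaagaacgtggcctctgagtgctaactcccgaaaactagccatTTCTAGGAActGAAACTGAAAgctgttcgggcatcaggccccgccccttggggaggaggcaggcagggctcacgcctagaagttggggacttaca

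In these windows the ISRE core of Gbp2 began 59 bases before the gene start, and that of Gbp7 began 53 bases before it. Gbp3 and Irgm1 each had 2 overlapping cores, at 45 and 39 bases before the start of Gbp3 and at 30 and 24 bases before that of Irgm1. Igtp had 1 core at 34 bases and a GAS at 45 bases, next to each other. Gbp7 had a GAS at 106 bases and another at 87 bases. The second window of Gbp3 held neither motif. In Tgtp1, whose window is not printed, a core at 77 bases followed a GAS at 88 bases.

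The Dox pair asked how crypts differ after 5 days of β-catenin induction. All 8 measured members were lower in Dox plus, each by at least 3-fold, with a median log2 difference of -2.53 (5.78-fold). Of the 9537 genes measured in this pair, 5.35% had a value at least 2-fold lower in Dox plus and 6.93% one at least 2-fold higher, with a median of 0.06. Of the members, 8 were at least 2-fold lower and 0 at least 2-fold higher. The count is the same over probe sets, since all 11 member probe sets measured in the pair had at least 2-fold lower values. Gbp6 and Mx1 were measured in Dox minus only, so with the floor they could only come out lower in this pair. With 1 array per group no test was run, and the spread between mice is unknown. In these unsorted crypts, fewer cells of an expressing type and less RNA per cell cannot be told apart.

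With values under 5 set to 5, Gbp6, Gbp3 and Gbp2 had the largest differences. Gbp6 (1438676_at) had 9.22 in Dox minus and 4.59 in Dox plus, so that it was measured without doxycycline only and was at least 18.6-fold lower with it. Its second probe set (1447927_at) had 7.65 and 4.09, a bound of at least 6.26-fold in the same direction. The GFP arrays were near Dox plus, at 4.44 in GFPhigh and 5.38 in GFPlow for the first probe set. On that probe set Dox minus thus stood alone above the other arrays, while Dox plus and the GFP arrays lay close together.

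Gbp3 (1418392_a_at) had 10.02 in Dox minus and 6.06 in Dox plus, a log2 difference of -3.96 (15.6-fold). GFPhigh and GFPlow lay between them, at 7.58 and 7.46. Gbp2, which is recruited to Toxoplasma vacuoles in mouse cells, had 10.48 in Dox minus and 6.83 in Dox plus on 1435906_x_at, a difference of -3.65 (12.5-fold). On 1418240_at it had 9.09 and 5.99, a difference of -3.10 (8.57-fold). For this gene the 3 arrays other than Dox plus were close together, since GFPhigh and GFPlow had 10.89 and 9.97 on the first probe set and 9.75 and 9.11 on the second. At the floor of 5, Gbp6, Gbp3 and Gbp2 were the members at least 8-fold lower in Dox plus. Mx1 has a bound only and could belong with them, at -3.98 with no floor.

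Gbp7, which takes part in autophagy and the oxidative burst of mouse macrophages, had 9.61 in Dox minus and 7.10 in Dox plus on 1434380_at, a difference of -2.51 (5.70-fold). The GFP arrays had 8.95 in GFPhigh and 8.18 in GFPlow. Its other probe set, 1425156_at, separated the pairs rather than the groups. It had 8.24 in GFPhigh and 8.54 in GFPlow but 2.62 in Dox minus and 2.53 in Dox plus, so it gave no difference in the Dox pair. Why one probe set of Gbp7 was low in crypts in which the other was high was not tested, and the mice, the sort and the preparation of the pairs cannot be told apart.

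The 3 measured IRG members were above the floor on both arrays of the Dox pair. Igtp, a regulatory IRG, had 10.67 in Dox minus and 8.12 in Dox plus (log2 difference -2.55, 5.85-fold), with 9.63 in GFPhigh and 9.26 in GFPlow between them. Irgm1, the other regulatory member, had 11.37 and 9.43 (-1.95, 3.86-fold). Its GFP values, 8.97 and 8.90, lay below both Dox values. Iigp1, the effector member, had 9.46 and 7.86 on 1419042_at (-1.60, 3.04-fold) and 9.44 and 7.85 on 1419043_a_at (-1.59, 3.01-fold). For Iigp1 also, Dox plus remained above both GFP arrays, which had values from 5.40 to 6.25 over the 2 probe sets.

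Mx1 (1451905_a_at) had 6.92 in Dox minus and 2.94 in Dox plus, at least 3.79-fold lower with doxycycline. Raising the floor to 6 brought its difference to -0.92, under 2-fold. The RefSeq table lists Mx1 as a transcribed pseudogene in the C57BL/6J reference, since many laboratory strains carry a defective allele. The sources used do not state which allele these mice carried.

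**Figure D1:**
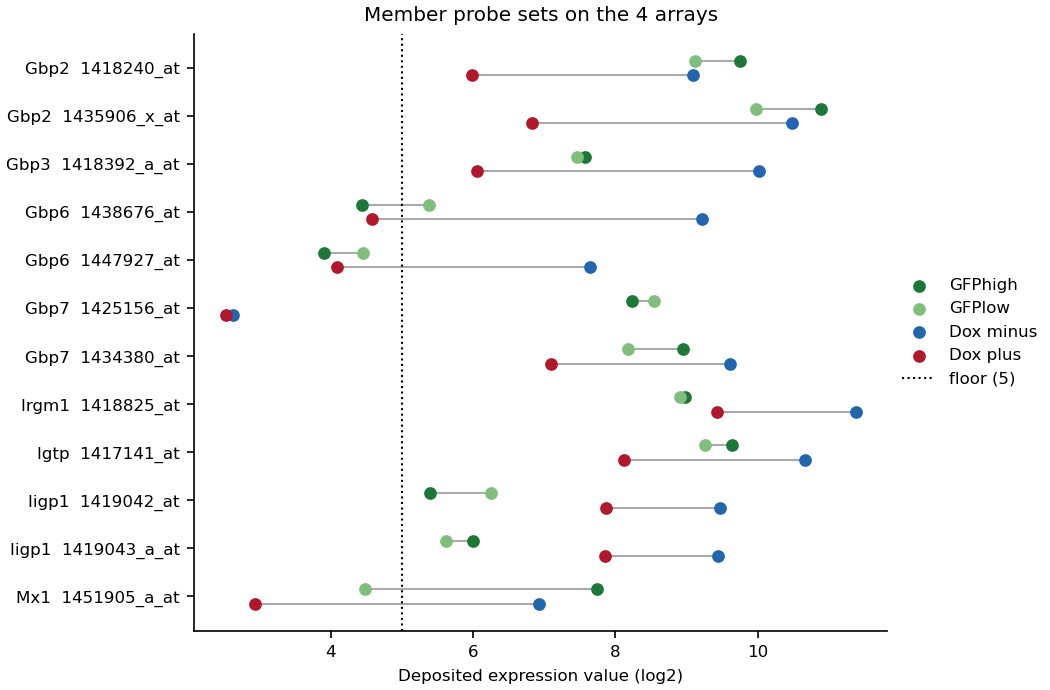
Deposited log2 values of the 12 member probe sets (rows) on the 4 arrays, 1 point per array, with a line joining the arrays of a pair and the floor of 5 dotted. In 11 of 12 probe sets Dox minus (blue) lies at least 2-fold to the right of Dox plus (red), while 1425156_at of Gbp7 is under the floor on both Dox arrays.

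By position among the 9537 genes ordered from the most negative Dox difference, Gbp6 was at rank 14, Gbp3 at 20, Gbp2 at 26, Igtp at 77, Gbp7 at 83, Irgm1 at 136, Mx1 at 140 and Iigp1 at 200. Thus 5 of 8 lay within the lowest 1% of genes. Gbp6 and Mx1 have bounds only and could rank lower still.

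The GFP pair asked how dividing crypt cells differ from label-retaining ones in normal colon. Here the members did not move as one group. Their median log2 difference, GFPlow minus GFPhigh, was -0.24 (1.18-fold) beside 0.04 over the 9381 genes measured in the pair, and 6 of 8 were below 0. One member, Mx1, was at least 2-fold lower in GFPlow and 0 were at least 2-fold higher. Among all measured genes 4.3% were at least 2-fold lower and 8.81% at least 2-fold higher in GFPlow, and 1 of 8 is too small a count to read against these shares.

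Mx1 had 7.74 in GFPhigh and 4.48 in GFPlow, at least 6.66-fold lower in dividing cells, at rank 7 of 9381. Its difference rests on 1 probe set, whose name ends in _a_at, a class that can match several transcripts of a gene. The next members were Gbp2 (-0.91 on 1435906_x_at and -0.64 on 1418240_at) and Gbp7 (-0.77 on 1434380_at, but 0.30 on 1425156_at). Gbp2 was thus lower in GFPlow on both of its probe sets, and Gbp7 was not. Igtp differed by -0.37, Gbp3 by -0.12 and Irgm1 by -0.07.

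Iigp1 and Gbp6 were the members with higher values in GFPlow. Iigp1 differed by 0.85 on 1419042_at (5.40 in GFPhigh, 6.25 in GFPlow), but by -0.37 on 1419043_a_at (5.99 and 5.62), so its direction depends on the probe set. Gbp6 differed by at least 0.38, with GFPhigh under the floor. Its second probe set was under the floor on both GFP arrays.

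**Figure D2:**
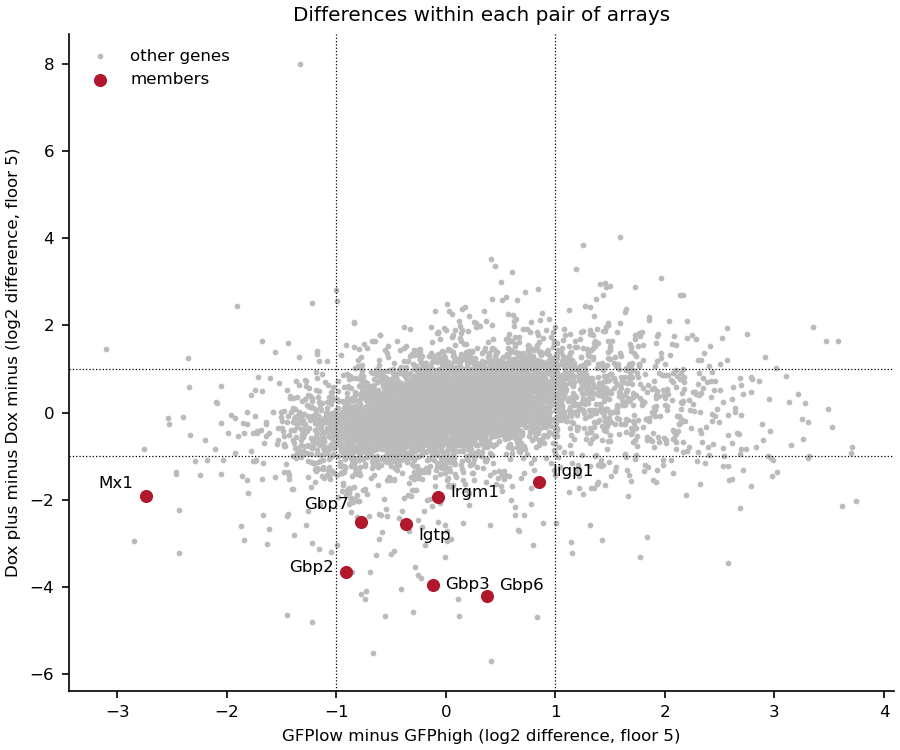
Each point is a gene measured in both pairs, placed by its log2 difference in the GFP pair (x axis) and in the Dox pair (y axis), with values under 5 set to 5 and 2-fold marked by dotted lines. The 8 members (red) spread from -2.74 to 0.85 along the x axis and lie between -4.22 and -1.60 on the y axis.

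Read across all 4 arrays, the 8 member genes were ordered in different ways, which bears on which array of the Dox pair stands apart. Dox minus exceeded both GFP arrays in 6 of 8 genes, Gbp2 and Mx1 being the exceptions. By deposited values, Dox plus was below both GFP arrays in 5 of 8 genes (Gbp2, Gbp3, Gbp7, Igtp and Mx1) and above both in 2 (Irgm1 and Iigp1). For Mx1, Dox plus (2.94) and GFPlow (4.48) were both under the floor, so the order of these arrays was not measured. Over the 12 probe sets, with no floor applied, the highest value was in Dox minus for 8, in GFPhigh for 3 and in GFPlow for 1, and the lowest was in Dox plus for 7. Those 7 include Mx1 and 1425156_at of Gbp7. On these, Dox plus was lowest only by the order of values under the floor (2.62 in Dox minus and 2.53 in Dox plus on 1425156_at). The pairs differ in genotype, sorting and preparation, so a raised Dox minus and a lowered Dox plus cannot be told apart from these values.

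The other genes of the same families gave similar values in the Dox pair. Gbp2b, the neighbour of Gbp2 on chromosome 3, had 8.03 in Dox minus and 1.73 in Dox plus, at least 8.16-fold lower, with 1.65 and 1.64 on the GFP arrays. Gbp8 of chromosome 5 had 6.31 and 3.54, at least 2.47-fold lower. The regulatory gene Irgm2 had 11.64 and 8.47 (log2 difference -3.17, 9.03-fold), and Ifi47, which encodes IRG-47, had 11.33 and 8.75 (-2.59). Irgq, an IRG-related gene, was the exception, at 7.86 and 8.42 (0.57). Gm12185, Gm4951 and Irgc1 were under the floor on every array. Mx2 was under it too, with 4.92 in Dox minus against values of 2.50 to 2.59 elsewhere. The probe set annotated to both Tgtp1 and Tgtp2 had 7.95 in Dox minus and 7.33 in Dox plus (-0.61), 5.81 in GFPhigh and 6.43 in GFPlow, and cannot be given to either gene. A probe set annotated to both Gbp4 and Gbp8 was under the floor on all arrays.

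Large GTPases of the dynamin superfamily that are not known as interferon-induced served as the nearest relatives outside these families. Of 6 measured, 0 were past 2-fold in the Dox pair, and their differences ran from -0.24 to 0.27 with a median of -0.12. They included Dnm2, a dynamin of endocytosis (-0.24), Opa1 and Mfn2 of mitochondrial fusion (-0.10 and -0.24) and Atl3 of the endoplasmic reticulum (0.27).

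The members and their relatives lie in tight groups on the chromosomes, which allowed the genes next to them to be read. The RefSeq table places Gbp7, Gbp3, Gbp2b and Gbp2 side by side on chromosome 3, Gbp8 and Gbp6 on chromosome 5, Irgm1 with Ifi47 and Igtp with Irgm2 at separate places on chromosome 11, Mx1 on chromosome 16 and Iigp1 on chromosome 18. The 12 measured family genes of these 6 places all had lower values in Dox plus, by log2 differences from -4.22 to -1.31. Gbp2b, Gbp8, Gbp6 and Mx1 were measured in Dox minus only, so with the floor they could only come out lower. Of the 24 nearest measured genes outside the families, 2 on each side, 1 was at least 2-fold lower and 2 at least 2-fold higher, with a median of 0.05. These neighbours were chosen by position alone. The lower one was Bace2 next to Mx1 (-1.60), and the higher ones were Kyat3 next to Gbp2 (1.14) and Gemin5 before Igtp (at least 1.58).

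**Figure D3:**
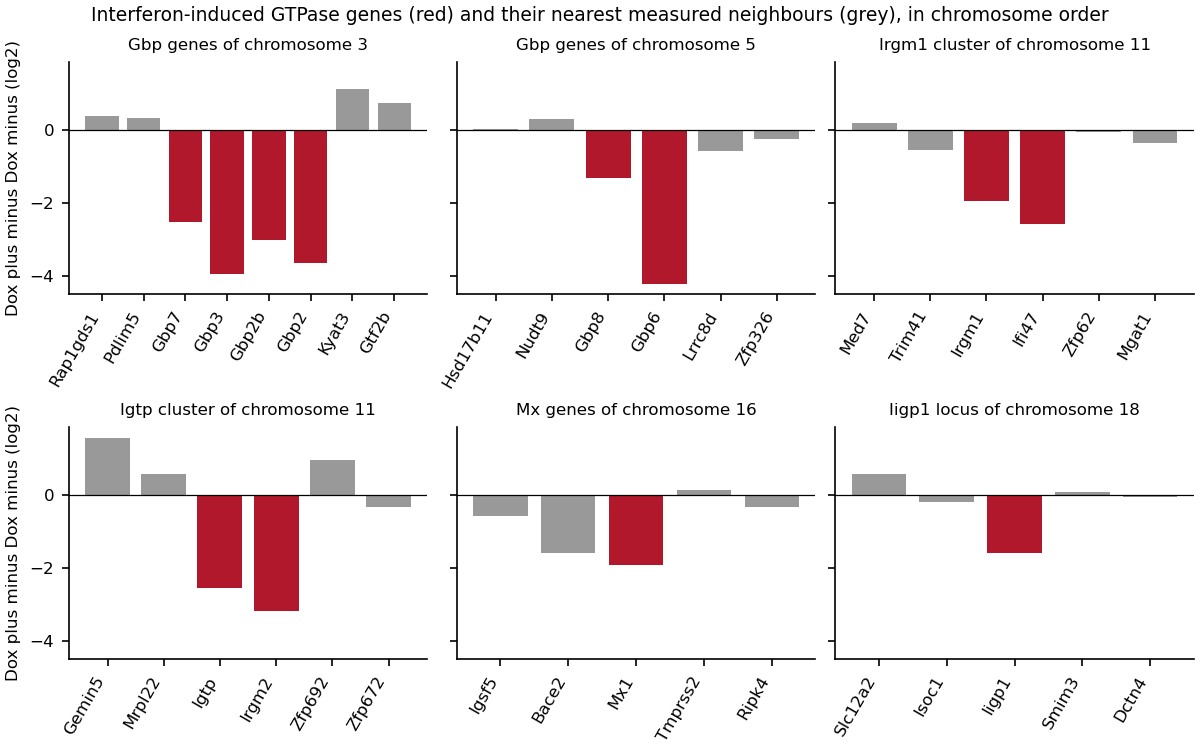
Bars give the log2 difference Dox plus minus Dox minus, with values under 5 set to 5, of the measured GTPase genes (red) and of the nearest 2 measured genes on each side (grey), in chromosome order but not to distance. Red bars all lie below -1, and the grey bars lie on both sides of 0, from -1.60 to 1.58.

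Along the pathway that induces these genes, no ligand with a probe set was measured, the receptors differed little and several transcription factors were lower in Dox plus. Of 11 ligand genes listed, 6 had a probe set of 1 symbol, and the others could not be read. These 6, Ifng, Ifnb1 and 4 interferon alpha genes, were under the floor on all arrays, with Ifng at 2.87 in Dox minus and 2.72 in Dox plus. Of 8 measured receptor and kinase genes, 0 were past 2-fold, with a median of -0.24. The interferon gamma receptor genes Ifngr1 and Ifngr2 differed by -0.03 and 0.70, the type I receptor gene Ifnar1 by 0.41, and the kinase gene Jak2 by -0.35. Ifnar2 was under the floor on all arrays.

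Of 5 measured transcription factor genes, 3 had a Dox plus value 2-fold or more below that of Dox minus and 0 one above it. Irf7, the factor that amplifies type I interferon responses, had 11.62 in Dox minus and 9.04 in Dox plus (-2.58), Stat2 10.36 and 7.94 (-2.43), and Irf9 10.86 and 9.83 (-1.04). Irf1, the factor that drives Gbp and IRG genes after interferon gamma, had 11.23 and 10.43 (-0.80), and Irf8 differed by 0.01. In the GFP pair Irf1 differed by -0.47 and Irf7 by -1.27. Among genes of feedback inhibitors, Usp18 had 11.80 in Dox minus and 6.10 in Dox plus (-5.70, 52.0-fold), a larger difference than that of any member at the floor of 5. Socs3 differed by -0.84 in the Dox pair, and Socs1 was under the floor on all arrays.

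Other interferon-responsive genes were set beside the members as lists. Of 12 measured interferon gamma readouts, 8 had a Dox plus value 2-fold or more below that of Dox minus and 0 one above it, and the list median was -1.15. The tryptophan-degrading enzyme gene Ido1 (at least 5.54-fold lower), the immunoproteasome gene Psmb8 (-2.36), the peptide transporter genes Tap1 (-2.20) and Tap2 (-1.77) stood furthest from 0, and Wars stood at 0.65. For type I and III readouts this held for 15 of 15 measured (list median -3.65). The members' median of -2.53 lay between the medians of these lists, and no difference between lists was tested.

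Partners with which these GTPases work did not share the pattern as groups. Of 10 measured autophagy conjugation genes, which help to place GTPases on vacuoles, 0 were past 2-fold in the Dox pair, with a median of -0.05. Atg5 and Atg3 differed by -0.07 and -0.04, and Map1lc3a stood furthest from 0 at -0.83. Of 6 measured inflammasome genes, Casp4, which encodes the caspase-11 that Gbp proteins help to activate, was the 1 past 2-fold, at 9.67 in Dox minus and 7.35 in Dox plus (-2.32). Casp1 differed by -0.58 and Gsdmd, the pore-forming substrate, by -0.82. Of 4 ubiquitin-related genes of the vacuole, Trim21 alone was past 2-fold (-1.36).

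**Figure D4:**
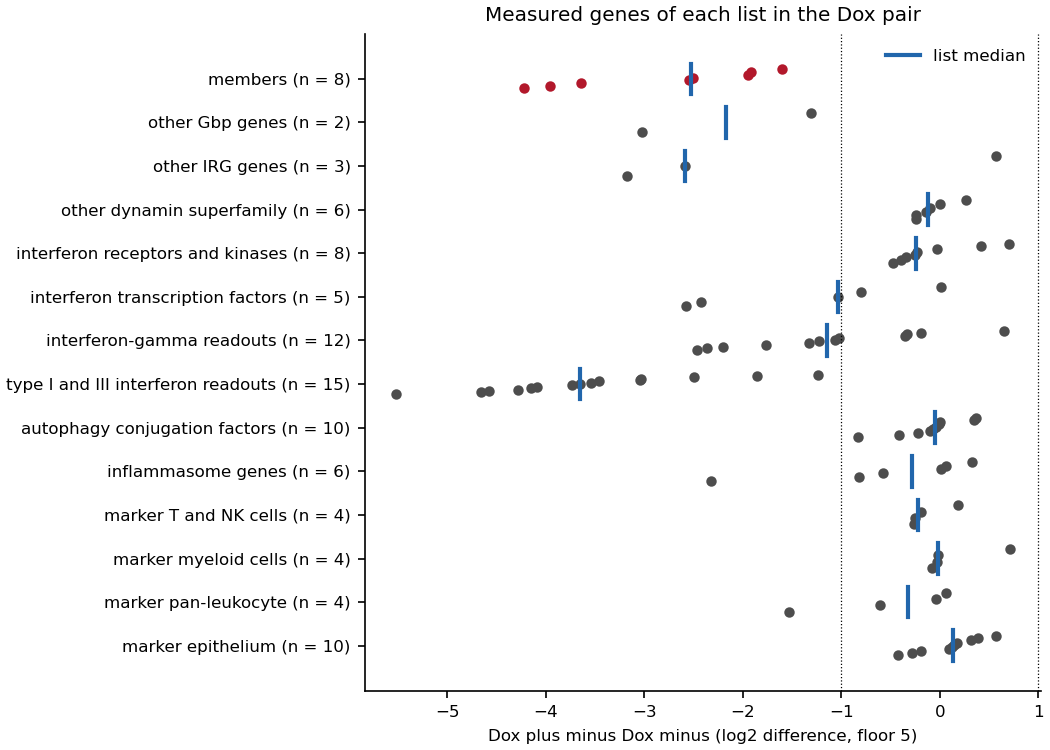
Each point is a measured gene, placed by its log2 difference Dox plus minus Dox minus with values under 5 set to 5, in rows by gene list, with a blue bar at the median of the list and 2-fold dotted. The members and the interferon readouts lie to the left, with medians of -2.53, -1.15 and -3.65, and the dynamin relatives, autophagy genes and epithelial markers lie between -0.83 and 0.57, while the leukocyte marker Laptm5 lies at -1.53.

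Markers of the cell types that could be in the preparations were read beside these results. All 10 epithelial markers were measured on every array and 0 were past 2-fold in either pair, with medians of 0.13 in the Dox pair and -0.21 in the GFP pair. Of 13 T and NK cell markers 4 were measured in the Dox pair, with a median of -0.22. Sums in this paragraph are of unlogged values over all genes of a list with a probe set, also those under the floor. For T and NK cells they were 594 without and 539 with doxycycline, and for the members 8957 and 1549. The 4 measured T and NK cell markers were above the floor on both Dox arrays. They were Gzma (log2 difference -0.19), Gzmb (-0.26), Cd8a (-0.25) and Itgae (0.19). Cd3d, Cd3e, Cd3g, Cd4 and Ncr1 were under the floor. Of 13 myeloid markers 4 were measured, with a median of -0.02 and sums of 1490 and 1494. C1qa had 7.97 in Dox minus and 7.94 in Dox plus, Csf1r 5.67 and 5.59, and Lyz2 5.59 and 6.30. Cd68, Adgre1 and Itgam were under the floor. Cd14 made up most of both myeloid sums, at 10.05 in Dox minus and 10.03 in Dox plus. It was higher still on the GFP arrays, at 13.39 in GFPhigh and 13.60 in GFPlow, so these sums mainly follow Cd14 and not the list. Pan-leukocyte markers summed to 471 and 303, with Laptm5 at -1.53 and Ptprc at -0.61, but Coro1a at -0.04 and Cd52 at 0.07 or more. In the B and plasma cell list, which summed to 230 and 55.3, Jchain alone was measured (at least 5.78-fold lower in Dox plus). The fibroblast list summed to 456 and 183, mainly from Vim (8.43 in Dox minus and 6.64 in Dox plus, -1.78). Pdgfrb, the other measured gene, was at least 1.25-fold lower in Dox plus. Col1a1, Col1a2, Col3a1, Pdgfra, Dcn and Lum were under the floor. All 6 endothelial and all 5 smooth muscle markers were under the floor on every array. How far leukocytes, plasma cells or cells that express Vim contribute to the members' differences was not tested.

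The pattern of the members over both pairs, a GFP difference of -0.24 with a Dox difference of -2.53, was compared with that of 9015 other genes measured in both pairs. The 5 genes at the smallest Euclidean distance from it, over 2 differences, were Ido1 (0.06), 2010106E10Rik (0.10), Ddx58 (0.17), Gcnt1 (0.21) and Stat2 (0.21). Ddx58 encodes the RNA sensor RIG-I and Gcnt1 a glycosyltransferase of mucin-type glycans. Gcnt1 differed by -2.71 in the Dox pair and -0.34 in the GFP pair, and Ddx58 by -2.50 and -0.07. Ido1 owes its place to the floor: it had 5.25 in GFPhigh and 7.47 in Dox minus but was under 5 in GFPlow and in Dox plus, so that both of its differences are bounds. The other 4 were above the floor on all arrays. The likeness is a description of 4 arrays.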

How the data were processed

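The authors deposited log2 expression values for 45101 probe sets on each of 4 arrays. The submitters' processing notes name GCRMA, a background correction and probe set summary, without a version. That the scale is log2 was taken from the range of the values, 0.47 to 16.27. Within pairs the arrays correlated at Pearson r = 0.985, and across pairs at 0.930 to 0.941, so differences were taken within pairs. With 4 arrays, their number limits the precision.

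The platform annotation supplied gene names: 34958 had 1 symbol, 932 several and 9211 none. Gene IDs of 34754 were found in the RefSeq table (GRCm38.p6), and 0 symbols changed. A gene takes the values of its probe set with the greatest mean level. Genes with at least 1 array of a pair at 5 or more were measured, lower values were set to 5, and a difference of 1 (2-fold) was counted. Computations used Python 3.11.15, pandas 2.3.3 and statsmodels 0.14.6, checked on data with known shifts.

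The members, lists and alternatives were chosen with earlier results of these data known. Named are all members, up to 4 genes per list, the main interferon receptors and factors, and the 5 genes nearest in pattern. Other names are given where a result turns on them: the chromosomal neighbours, the shared probe sets, the unmeasured genes and further list genes were named after their values were seen.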

Additional observations from a re-analysis of the deposited data

How the results depend on the processing

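Each result was recomputed with the floor at 4, at 6 or absent, after quantile normalization, after loess correction (span 0.4), from the mean of a gene's probe sets, without the suffixed probe sets (_x_at, _s_at, _a_at) and, for counts, at 3-fold. The count of members lower in Dox plus stayed between 6 and 8 and that of members higher at 0. The count of 6 came without the suffixed probe sets, which leaves 6 members because Gbp3 and Mx1 have no other. The median Dox difference ran from -3.10 to -2.53. In the GFP pair the 1 member lower in GFPlow, Mx1, dropped out without suffixed probe sets, giving 0, since it has no other probe set; the median ran from -0.37 to -0.18. Of 107 alternative values of single members, 8 moved by over 1.5 times and 0 of those past 2-fold turned sign. They were Mx1 in the Dox pair (-2.92 with a floor of 4, -0.92 with a floor of 6, -3.98 with no floor) and in the GFP pair (-1.74 with a floor of 6), Gbp6 in the Dox pair (-3.22 with a floor of 6, -3.43 as a mean) and Iigp1 in the GFP pair (0.25 with a floor of 6, 0.24 as a mean). No paired analysis was possible because each group has 1 array.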

Other observations

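In the Dox pair, Casp1 and Aim2 had the same log2 difference as in the GFP pair, to within 1e-05: -0.58 in both pairs for Casp1 and 0.06 in both for Aim2. Of 15006 probe sets at or above the floor on all 4 arrays, 81 (0.540%) had equal differences in both pairs at this tolerance, and 43 (0.287%) had equal differences of opposite sign. None of the 12 member probe sets was among either group. The cause was not tested.

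The probe set annotated to both Gvin1 and Gm4070, genes of very large interferon-inducible GTPases, had 9.66 in Dox minus and 8.58 in Dox plus (log2 difference -1.08, 2.11-fold), and 9.26 in GFPhigh and 9.02 in GFPlow.

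Further interferon gamma readouts were past 2-fold in the Dox pair: Tapbp, a chaperone gene of peptide loading, differed by -1.03 and Batf2, a transcription factor gene, by -1.07. Nlrc5 and Ciita, the transactivators of MHC genes, were measured in the GFP pair only, at least 3.12-fold and at least 3.38-fold lower in GFPlow. Nlrc5 had 6.64 in GFPhigh and 4.94 in GFPlow, and Ciita 6.76 and 4.06.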
